A study of Rattus norvegicus with 9 samples.

Results

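The genes of the GDNF receptor complex, Ret, Gfra1, Gfra2, Nrtn and Gdnf, were followed across 3 tissues of the embryonic rat urinary tract. The members were every probe set (a group of short probes for the same transcript) that the platform annotation gives a single symbol, that symbol being Ret, Gfra1, Gfra2, Nrtn or Gdnf. This gave 9 probe sets of the 31042 that are not controls, for 5 of 14217 named genes. Total RNA was prepared from embryos of the Sprague-Dawley strain, taken at embryonic day 13, and hybridised to 9 single-colour oligonucleotide arrays, 3 for each tissue. The ureteric bud (UB), the outgrowth that branches inside the kidney rudiment, was freed from it by brief digestion with trypsin, and each array held about 100 pooled buds. The Wolffian duct (WD), the epithelial tube from which the bud grows, was dissected with no enzyme, and each array held about 100 pooled ducts. The tissue called WD+IM was the duct with mesodermal cells still attached, about 50 pooled pieces an array. All embryos were of that strain and age, and the labels name no mutation and no drug. Digestion and tissue cannot be told apart in any comparison with the UB. Replicates are labelled as biological, and each p-value sets a difference against the spread between pools.

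GDNF is a secreted ligand that binds GFRA1, a co-receptor anchored to the outer cell membrane, and the pair engages RET, a receptor tyrosine kinase that carries the signal into the cell. In the developing kidney RET and GFRA1 are known from the duct and the bud tip, and GDNF from the mesenchyme into which the bud grows. Mice that lack any of the 3 commonly fail to form a ureteric bud. GFRA2 is the related co-receptor that prefers neurturin, the ligand encoded by Nrtn, and its complex also signals through RET.

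The promoters of Ret and Gdnf, the receptor kinase and its ligand, are shown because Ret had the largest UB to WD+IM difference among the members' brightest probe sets and Gdnf gave no signal above the 40th percentile of any array. RefSeq promoter sequences of the GRCr8 build were matched by symbol for 4 of the 5 genes, Gfra2 not being among them. The windows are the 250 bases before the annotated start, printed 5′ to 3′ on the strand of the gene, with each CG dinucleotide and each match to the TATA motif TATAAA in capitals.
Ret, chr4:153040557-153040806, minus strand: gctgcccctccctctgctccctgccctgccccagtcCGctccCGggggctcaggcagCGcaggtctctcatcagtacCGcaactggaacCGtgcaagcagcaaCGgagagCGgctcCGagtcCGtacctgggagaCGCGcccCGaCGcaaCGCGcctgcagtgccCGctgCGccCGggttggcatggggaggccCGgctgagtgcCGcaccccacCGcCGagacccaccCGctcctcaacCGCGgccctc
Gdnf, chr2:58621077-58621326, plus strand: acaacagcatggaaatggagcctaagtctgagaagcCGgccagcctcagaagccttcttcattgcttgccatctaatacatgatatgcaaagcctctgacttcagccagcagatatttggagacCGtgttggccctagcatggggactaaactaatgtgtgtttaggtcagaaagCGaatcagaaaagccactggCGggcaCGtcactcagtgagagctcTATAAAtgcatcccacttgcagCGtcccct
The Ret window was 72.8% G and C and held 25 CG dinucleotides, and 5.28% of the 33469 rat promoter windows had as high a G and C content. The Gdnf window was 49.6% G and C, held 6 CG dinucleotides, and had 1 TATAAA match, a motif found in 12.9% of all windows. The motif AGATAA, known from factors such as GATA3, had no match on either strand of these windows and was found in 10.3% of all windows. The same held for the full string CCGGAA, known from ETS factors and found in 12.6% of all windows, and for ACAAAG, known from SOX factors, found in 16.3%. Shorter forms of these motifs were not searched for. In the corresponding windows of Gfra1 and Nrtn, which lie inside longer gene models and are not printed, the search found no match and 1 AGATAA match. No match shared bases with that of another motif, and a match describes letters only.

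Signals are intensities in the linear units of the scanner software, with all arrays scaled to the same trimmed mean. Array medians ran from 534 to 897 units. The hybridisation controls bioC and bioB, bacterial transcripts added to the labelled RNA, gave a bioC to bioB ratio of 2.88 to 2.99 in UB, 1.02 to 1.24 in WD, and 1.09 and 1.23 on WD+IM replicates 1 and 2, but 2.93 on WD+IM replicate 3. That array therefore stood with the UB arrays on this ratio, and values without it are given below. Beta-actin, whose 3′ over 5′ ratio reflects RNA integrity, gave 1.48 to 2.30 in UB, 2.19 to 4.87 in WD and 1.47 to 1.92 in WD+IM. Summed signals of 14 duct epithelium markers such as Cdh1, Epcam and Pax2 were 222248 to 233650 in UB and 247049 to 268797 in WD but 80139 to 117288 in WD+IM. Those of 14 mesenchyme markers such as Col1a1 and Dcn were 10211 to 12936 in UB, 98990 to 135418 in WD and 227322 to 269345 in WD+IM. Epithelial markers were thus present in all 3 tissues, and the ducts dissected without mesoderm also carried mesenchymal transcripts. In whole-tissue RNA, fewer cells of a type and less RNA per cell cannot be told apart.

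Ret, Gfra1 and Nrtn had the same order of levels, UB above WD above WD+IM. Gfra2 had another one: it was low in the UB and about equal in WD and WD+IM. Gdnf gave a weak signal on every array, with no separation between tissues. Each gene is described below by its brightest probe set, then by the others.

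Ret gave 47693, 49028 and 38887 units in the 3 UB pools (probe set 1370989_at). In WD it gave 7387, 6340 and 8168 units, and in WD+IM 1336, 2014 and 2463 units. Every UB pool was above every WD pool, and every WD pool above every WD+IM pool. The means ± SD were 45203 ± 5510, 7298 ± 917 and 1937 ± 567 (n = 3 each). Differences were fitted with limma on log2(intensity + 46), a scale that understates the change of weak genes. They were adjusted by Benjamini-Hochberg over the 20330 probe sets that passed a filter on low signal, and called under an adjusted p of 0.05. Ret was 2.62 ± 0.20 (log2 difference ± SE) higher in UB than in WD, a 6.16-fold difference (95% interval of the log2 difference 2.18 to 3.07, limma adjusted p = 2.77e-06). In WD+IM against WD the difference was -1.92 ± 0.20, or 3.79-fold lower in WD+IM (adjusted p = 1.28e-04). Between UB and WD+IM the difference was 4.55 ± 0.20, or 23.4-fold (adjusted p = 1.34e-08).

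Both further Ret probe sets, which the annotation lists under a shared sequence record, kept this order. With 1371112_at the UB pools gave 21131, 18700 and 22448 units, the WD pools 1997, 2085 and 2238, and the WD+IM pools 417, 517 and 833. The tissues did not overlap, and the differences were 3.27 ± 0.22 for UB against WD (limma adjusted p = 8.20e-07) and -1.81 ± 0.22 for WD+IM against WD (adjusted p = 2.42e-04). With 1388208_a_at the signals were 11466, 10146 and 16317 units in UB, 840, 1074 and 1955 in WD, and 395, 805 and 389 in WD+IM. Here replicate 3 was the highest pool of UB and of WD, and all WD+IM pools lay below the lowest WD pool, replicate 2 just below it. The UB to WD difference was 3.31 ± 0.33 (limma adjusted p = 2.59e-05). The WD+IM to WD difference of -1.20 ± 0.33 was called at an adjusted p of 0.0347 by limma, and was not called without UB replicate 1, WD replicate 2 or 3, or WD+IM replicate 1 or 3 (adjusted p from 0.0568 to 0.111).

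Gfra1, the co-receptor that binds GDNF, gave 26863, 24266 and 23807 units in UB (probe set 1387007_at). It gave 8581, 9741 and 10408 units in WD, and 2508, 4338 and 2920 in WD+IM. The tissues were again fully separated, with WD+IM replicate 2 the nearest of its tissue to WD. The means ± SD were 24978 ± 1648, 9577 ± 925 and 3255 ± 960 (n = 3 each). Gfra1 was 1.38 ± 0.18 higher in UB than in WD, 2.61-fold (95% interval 0.98 to 1.78, limma adjusted p = 2.08e-04). Between WD+IM and WD the log2 difference was -1.58 ± 0.18 (adjusted p = 2.09e-04), and in UB against WD+IM 2.96 ± 0.18, or 7.77-fold (adjusted p = 1.99e-07).

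The other Gfra1 probe set, 1367954_at, separated the UB but not the duct samples. It gave 8544, 6566 and 16245 units in UB, 1181, 1794 and 3447 in WD, and 1251, 1831 and 1242 in WD+IM. The WD and WD+IM pools overlapped, and replicate 3 was again the highest pool of UB and of WD, as it was with Ret 1388208_a_at. These were the pools with the lowest beta-actin ratio of their tissue, 1.48 and 2.19. In WD+IM it was otherwise: replicate 1 had the lowest ratio, 1.47, but replicate 2, at 1.80, was the highest pool with both probe sets. The UB to WD difference was 2.29 ± 0.38 (limma adjusted p = 9.79e-04), and 1.30 with the log2 beta-actin ratio as a covariate (adjusted p = 0.0196). The WD+IM to WD difference was -0.44 ± 0.38, with a 95% interval of -1.27 to 0.38 (adjusted p = 0.477), and -1.63 with that covariate (adjusted p = 0.024). The change of 1387007_at minus that of 1367954_at was -0.91 in UB against WD and -1.13 in WD+IM against WD (exact permutation p = 0.3 and 0.1, two-sided, 0.1 being the smallest that 3 arrays against 3 allow). Over the 3 tissues it gave an exact permutation p of 0.1143.

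Gfra2, the co-receptor that prefers neurturin, was the member with the opposite direction. Probe set 1369167_at gave 446, 352 and 324 units in UB, 3059, 2700 and 2369 in WD, and 2717, 3014 and 2560 in WD+IM. All UB pools lay far below all duct pools, and WD and WD+IM overlapped. The means ± SD were 373.9 ± 63.6, 2709 ± 345 and 2764 ± 230 (n = 3 each). The UB values sat near the 40th percentile of their arrays, replicate 3 just below it. With no detection calls the UB signal cannot be told from background, so the sizes of the differences from UB that follow are uncertain. Gfra2 was lower in UB than in WD by a log2 difference of -2.72 ± 0.20, 6.58-fold (95% interval -3.15 to -2.28, limma adjusted p = 1.82e-06), and lower than in WD+IM by -2.75 ± 0.20 (adjusted p = 8.51e-07). Between WD+IM and WD the difference was 0.03 ± 0.20, and its 95% interval of -0.40 to 0.47 bounds the change on this scaling (adjusted p = 0.932). Centred on Cdh1 and Epcam instead, that difference was 1.74 (limma adjusted p = 5.23e-05).

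The second Gfra2 probe set, 1375359_at, was above the 40th percentile on 1 of the 9 arrays and was not tested in the fit. It gave 101, 91.6 and 217 units in UB, 165, 465 and 342 in WD, and 562, 260 and 234 in WD+IM. UB overlapped WD and lay below WD+IM. The log2 differences were -0.99 for UB against WD and 0.10 for WD+IM against WD.

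Nrtn, which encodes neurturin, gave 16389, 13045 and 13302 units in UB (probe set 1374048_at). It gave 3263, 2643 and 3496 units in WD, and 955, 1039 and 1908 in WD+IM. The tissues did not overlap, and the highest WD+IM pool was replicate 3. The means ± SD were 14246 ± 1861, 3134 ± 441 and 1301 ± 528 (n = 3 each). Nrtn was 2.17 ± 0.24 higher in UB than in WD, 4.50-fold (95% interval 1.66 to 2.69, limma adjusted p = 4.58e-05). The UB to WD+IM difference was 3.47 ± 0.24, or 11.1-fold (adjusted p = 4.97e-07). The WD+IM to WD difference was -1.30 ± 0.24 (limma adjusted p = 0.00335), but -1.17 and not called with the beta-actin covariate (adjusted p = 0.105), and 0.41 and not called when centred on Cdh1 and Epcam (adjusted p = 0.157). Nrtn and the co-receptor Gfra2 thus differed between UB and WD in opposite directions.

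Gdnf, the ligand of the complex, gave 186, 37.0 and 130 units in UB (probe set 1369598_at). It gave 25.2, 81.5 and 162 units in WD, and 68.1, 40.6 and 63.6 in WD+IM. The 3 tissues overlapped, and no array reached its own 40th percentile, which ran from 269.9 to 569.4 units. Gdnf was therefore not tested in the fit. The means ± SD were 117.5 ± 75.3, 89.6 ± 68.9 and 57.4 ± 14.7 (n = 3 each), and the log2 differences were 0.28 for UB against WD and -0.27 for WD+IM against WD. With no detection calls used, a signal this weak cannot be told from background, and a Gdnf difference was not detectable here.

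**Figure D1:**
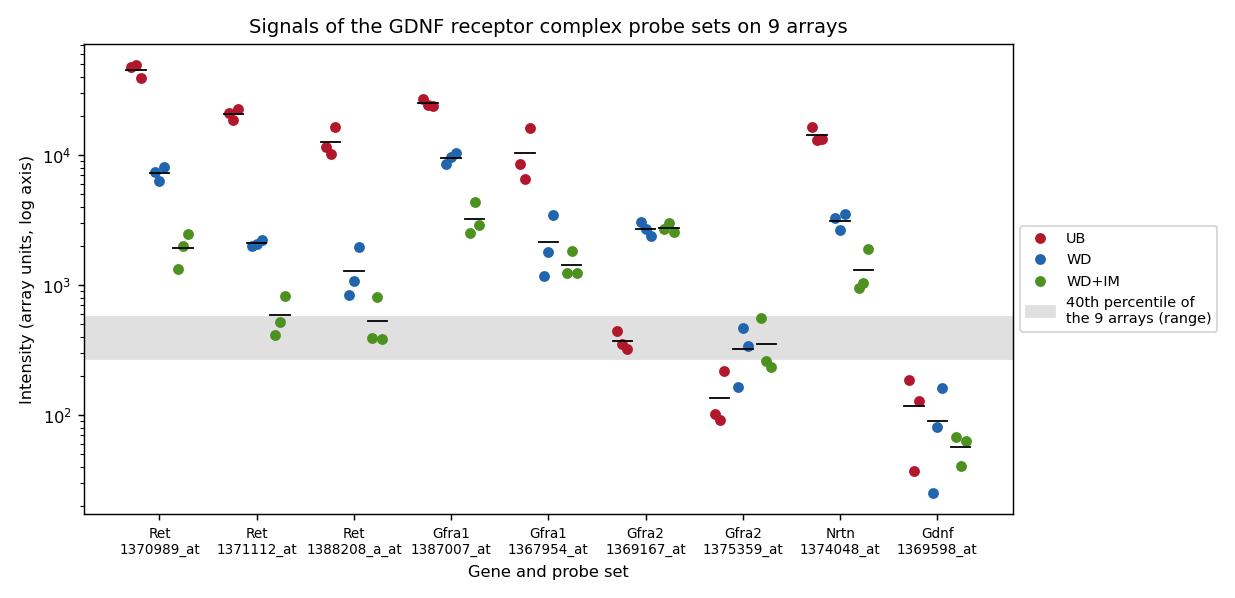
Intensity of the 9 probe sets on a log axis, with a point for each array, grouped by tissue (UB, WD, WD+IM), a bar at the mean of 3 arrays, and a grey band for the range of the arrays' 40th percentiles (269.9 to 569.4 units). Ret, Gfra1 1387007_at and Nrtn step down from UB to WD to WD+IM, Gfra2 1369167_at is low only in UB, and all Gdnf points lie under the band.

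Of the 9 probe sets, 7 passed the filter and were tested. In UB against WD all 7 were called, 6 higher and 1 lower in UB, where 29.9% of all 20330 probe sets were called, 11.3% higher and 18.6% lower. Between WD+IM and WD 5 were called, all lower in WD+IM, against a background of 12.7%, with 5.62% higher and 7.06% lower. Between UB and WD+IM all 7 were called, 6 higher and 1 lower in UB, against 25.5%, with 11% higher and 14.5% lower. Each pair of comparisons has a tissue in common, so the counts are not independent of each other. The 7 probe sets stand for 4 genes, with 3 for Ret and 2 for Gfra1, and those of a gene are not independent either. By the brightest probe set, all 4 genes were called in both UB comparisons, where 33% (WD) and 30.3% (WD+IM) of all genes were called. Between WD+IM and WD all but Gfra2 were called, against 14.7% of all genes. The pools did not overlap for 7 of 7 tested member probe sets between UB and WD, for 7 of 7 between UB and WD+IM and for 5 of 7 between WD+IM and WD, against 47.8%, 42.6% and 29.6% of all tested probe sets. The member counts in UB against WD and in UB against WD+IM were the same under quantile normalization and median centring, while the share of all UB to WD calls that were higher in UB moved from 37.8% to 50.9% and 79.2%. For UB against WD+IM that share moved from 43.0% to 49.4% and 72.0%, and for WD+IM against WD from 44.3% to 49.6% and 57.5%. Between WD+IM and WD the member counts were 4 lower under quantile normalization and 5 lower under median centring, but 2 higher and 0 lower when centred on Cdh1 and Epcam. The median difference of all probe sets in UB against WD was -0.12, and 0.34 after median centring. The 7 members' differences in that comparison, 1.38 and more in size, exceeded that shift. Over the 3 tissues, an exact permutation test of the sum of squares between tissues gave 0.003571, the smallest p that 1680 assignments allow, for the 3 Ret probe sets, Gfra1 1387007_at and Nrtn. It gave 0.025 for Gfra1 1367954_at, 0.03214 for Gfra2 1369167_at, 0.1321 for Gfra2 1375359_at and 0.5607 for Gdnf, 9 probe sets having been tested this way and none adjusted.

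**Figure D2:**
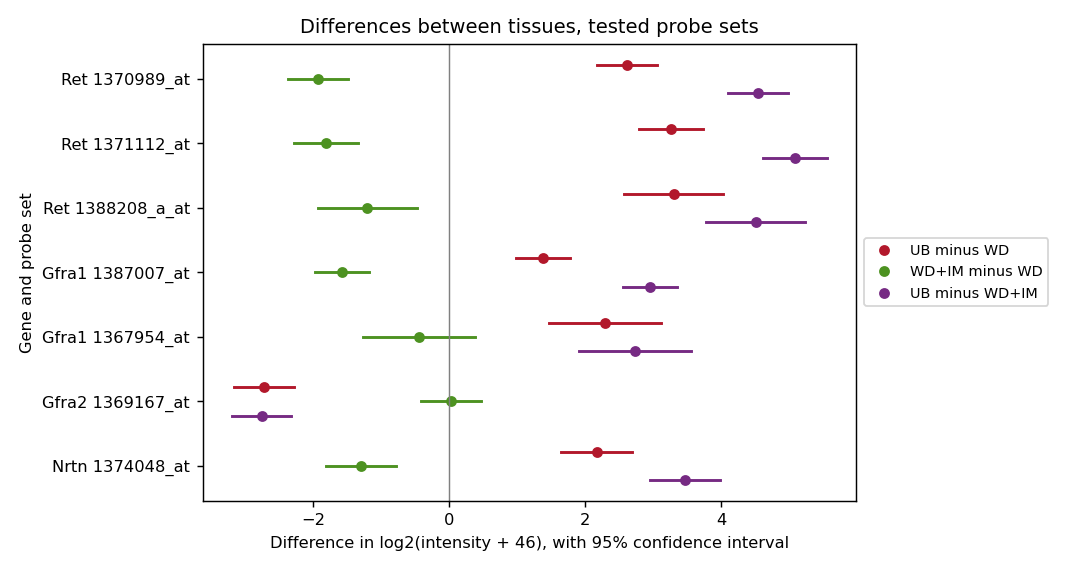
Difference in log2(intensity + 46) with its 95% interval from limma for the 7 tested probe sets in the 3 tissue comparisons, with a line at 0. The 6 probe sets of Ret, Gfra1 and Nrtn lie to the right of 0 in both UB comparisons and Gfra2 to the left, and in WD+IM against WD the intervals of Gfra1 1367954_at and Gfra2 include 0; centred on Cdh1 and Epcam, the WD+IM to WD differences of Gfra1, Nrtn and Ret 1388208_a_at turn positive.

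The UB arrays all had a high ratio of hybridisation controls and the WD arrays all a low one, so the ratio could be set against tissue only through the WD+IM arrays. With the ratio class as a further term in the fit, which rests on WD+IM replicate 3, the UB to WD difference was 2.05 for Ret, 1.56 for Gfra1, -2.56 for Gfra2 and 1.26 for Nrtn (limma adjusted p = 0.00484, 0.0283, 0.00299 and 0.0407). The value of Nrtn was thus lower by over 1.5 times in size, and the call of Gfra1 1367954_at was lost (2.57, adjusted p = 0.0776). Without WD+IM replicate 3 the WD+IM to WD difference was -2.11 for Ret, -1.52 for Gfra1, 0.09 for Gfra2 and -1.60 for Nrtn. Within the 4 arrays of high ratio, which hold a single WD+IM array and give the same differences as the fit with the ratio term, UB was above WD+IM by 4.17 for Ret, 3.08 for Gfra1 and 2.86 for Nrtn, and Gfra2 differed by -2.64. The directions of these 4 genes were the same with and without that array.

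The lower Ret, Gfra1 and Nrtn signals of WD+IM stood beside lower signals of most duct epithelium markers, and a common cause was not tested. Centred on Cdh1 and Epcam, Ret kept its direction but not its call, and Gfra1 and Nrtn lost both. Of 14 tested duct epithelium markers, 11 were lower in WD+IM than in WD and none higher, with a median difference of -1.60 against -0.01 over all 10809 genes tested. Of all those genes 8.23% were called lower and 6.49% higher. The 3 markers not called were Krt19 (0.01), Calb1 (-0.75) and Cldn7 (-0.82). Cdh1, the epithelial cadherin, differed by -1.69 and Epcam, an epithelial adhesion molecule, by -1.72, beside -1.92, -1.58 and -1.30 for Ret, Gfra1 and Nrtn. Centring on Cdh1 and Epcam subtracts their mean from each array, so the centred differences follow from these values. When each array was centred on Cdh1 and Epcam, a scaling chosen after the data were seen, the WD+IM to WD difference was -0.22 for Ret (limma adjusted p = 0.339), 0.13 for Gfra1 (adjusted p = 0.563) and 0.41 for Nrtn (adjusted p = 0.157). The median of all probe sets moved to 1.67 on that scaling. In UB against WD the same scaling gave 2.70 for Ret, 1.46 for Gfra1, 2.24 for Nrtn and -2.64 for Gfra2, near the values above. On the main scaling the epithelial markers were 3 higher and 4 lower of 14 in UB against WD, beside 13.3% and 19.6% of all genes. Their median there was -0.07. Cdh1 and Epcam differed by -0.09 and -0.06, so centring on them could move the members only little in that comparison. In UB against WD+IM centring on Cdh1 and Epcam gave 2.92 for Ret, 1.33 for Gfra1, 1.84 for Nrtn and -4.38 for Gfra2.

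**Figure D3:**
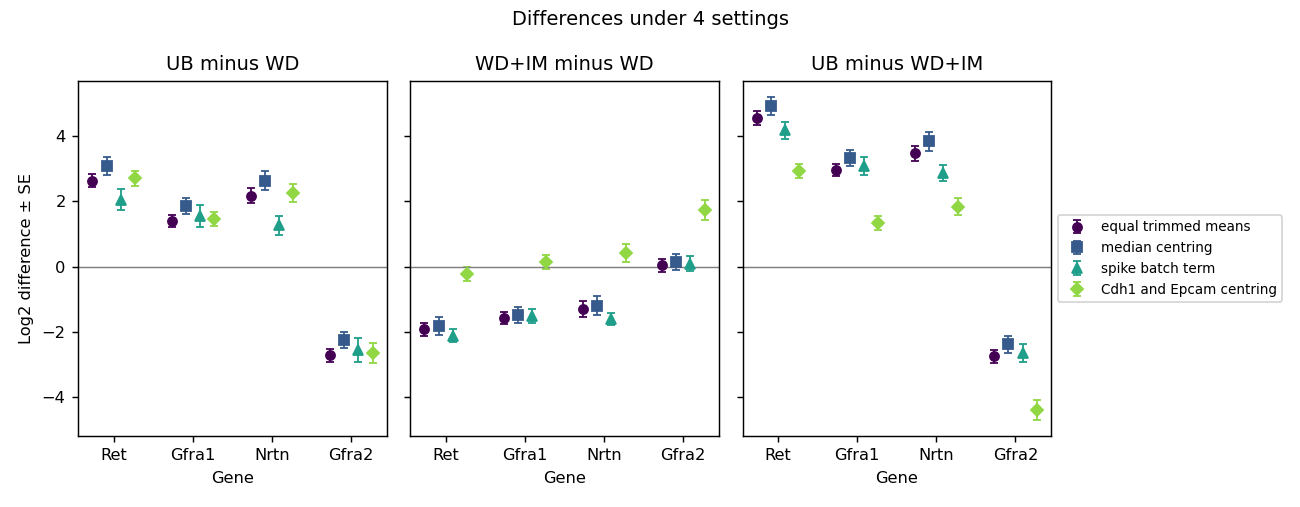
Log2 differences ± SE of Ret, Gfra1, Nrtn and Gfra2 in the 3 comparisons under 4 settings: arrays as deposited with equal trimmed means, arrays centred on their medians, a term for the hybridisation-control ratio, and arrays centred on Cdh1 and Epcam. The UB panels keep their signs under all 4 settings, whereas in WD+IM against WD centring on Cdh1 and Epcam brings Ret to -0.22, turns Gfra1 and Nrtn to 0.13 and 0.41, and brings Gfra2 to 1.74.

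The members also differed among themselves in how far they changed, a comparison that a common scaling factor for an array leaves nearly as it is. These comparisons use each gene's brightest probe set. From WD to UB, the log2 change of Ret exceeded that of Gfra1 by 1.24 and that of Nrtn by 0.45, and in each case the 3 UB arrays lay above the 3 WD arrays (exact permutation p = 0.1 each, two-sided, the smallest possible). Gfra1 1367954_at differed by 2.29 ± 0.38 in UB against WD, beside 2.62 ± 0.20 for Ret. The size of the excess over Gfra1 thus depended on the Gfra1 probe set. From WD+IM to UB, Ret exceeded Gfra1 by 1.59 and Nrtn by 1.08 (exact p = 0.1 each). From WD to WD+IM, the change of Ret minus that of Gfra1 was -0.35 (exact permutation p = 0.3) and minus that of Nrtn -0.63 (exact p = 0.1). Over the 3 tissues the difference between Ret and Gfra1 gave an exact permutation p of 0.01071 and that between Ret and Nrtn 0.003571, 3 such differences having been computed with the pair of Gfra1 probe sets. Across the 9 arrays the log2 signal of Ret had a Pearson's r of 0.991 with Nrtn, 0.979 with Gfra1 and -0.898 with Gfra2. These values describe 9 arrays that fall into 3 tissues and share their scaling, with too few arrays in a tissue for a value within it.

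Among the other ligands and receptors of the family, Gfra3 was lower in the UB, the direction of Gfra2. Gfra3, the co-receptor that prefers artemin, gave 148 ± 84.7 units in UB, 753 ± 71.9 in WD and 2401 ± 71.2 in WD+IM (mean ± SD, n = 3 each). It was lower in UB than in WD by -2.14 (limma adjusted p = 6.15e-04) and higher in WD+IM than in WD by 1.62 (adjusted p = 0.00685). The 3 tissues did not overlap. All UB values of Gfra3 lay below the 40th percentile of their arrays, so its UB signal cannot be told from background and the size of that difference is uncertain. Gfra4, the co-receptor that prefers persephin, was below the filter, with means of 47.0, 286 and 366 units. Pspn, which encodes persephin, differed by 0.10 between UB and WD (adjusted p = 0.90). Artn, for artemin, and the divergent receptor gene Gfral were matched to no probe set. Ncam1, an alternative GDNF receptor, differed by -0.92 between UB and WD (adjusted p = 0.0669) and Sdc3, a heparan sulfate proteoglycan that binds GDNF, by 0.67 (adjusted p = 0.105). Sorl1, a sorting receptor for GDNF and GFRA1, was lower in UB by -0.96 (adjusted p = 0.00263), with 4 of its 6 other tested probe sets called in that direction.

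Downstream of the receptor, few adaptors and kinases but most of the transcriptional targets were called in UB against WD. Of 28 listed adaptors and kinases 17 were tested in UB against WD, and 4 were lower and none higher, with a median of -0.19 against -0.08 over all 10809 genes. By 1 probe set a gene, 33% of all genes were called in that comparison, 13.3% higher and 19.6% lower. Those lower were Akt1 (-0.64), Gab1 (-0.68), Pik3r1 (-0.85) and Plcg1 (-0.60), a kinase, a docking protein, a regulatory subunit of PI3 kinase and a phospholipase, the last of them named after its value was seen. Of 18 listed targets and feedback genes 13 were tested, and 11 were higher and 1 lower in UB, with a median of 2.02. Met (1.68), among those higher and named after its value was seen, passed the filter only through the UB arrays. The count of those higher was thus partly set by the filter. Etv5 and Etv1, ETS transcription factors known to respond to RET or FGF signalling, were higher by 4.01 and 3.31, where the 3 Ret probe sets gave 2.62, 3.27 and 3.31. The WD values of Etv5 ran from 316 to 765 units, around the 40th percentile of those arrays. The sizes of its differences from WD are therefore uncertain. The other tested probe set of Etv5 was not called in UB against WD, while the 3 others of Etv1 were. Kif26b, a kinesin best known from the kidney mesenchyme, was the gene that was lower (-3.18). In WD+IM against WD 4 of the 13 targets were higher and none lower, with a median of 0.26, where 14.7% of all genes were called, 6.49% higher and 8.23% lower. Ret differed by -1.92 there, and by -0.22 when centred on Cdh1 and Epcam. Those 4 were Etv1 (1.05), Etv5 (1.07), Kif26b (1.13) and Wnt11 (2.68), a Wnt ligand of the bud tip named after its value was seen. Wnt11 lay between 17.4 and 33.0 units in WD, far below the 40th percentile of those arrays, so the size of its difference is uncertain, and its other tested probe set was not called. The other tested probe set of Etv5 and the 3 others of Kif26b were also not called in WD+IM against WD. Of the 3 others of Etv1, 1 was called. Etv4 was not called by its brightest probe set, but its other one was called higher.

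Counts for regulators upstream of Ret are given beside the shares called over all genes. Of 14 listed genes 10 were tested, and in UB against WD 1 was higher and 4 were lower, with a median of -0.42. Over all genes 13.3% were higher and 19.6% lower in that comparison. Lhx1, a duct homeobox factor, was higher by 1.62. Aldh1a2, a retinoic acid synthesis enzyme that is usually mesenchymal, was lower (-3.71), as were Gata2 (-2.08), Pax8 (-1.0) and Rara (-1.08), the last 2 named after their values were seen. Gata3, the duct GATA factor, differed by -0.15 (limma adjusted p = 0.733), and Pax2 by 0.29 (adjusted p = 0.314). Between WD+IM and WD 1 was higher and 5 were lower, with a median of -0.64, beside 6.49% higher and 8.23% lower over all genes. In UB against WD+IM 5 were higher and 4 lower, where 30.3% of all genes were called, 13.6% higher and 16.6% lower. The 10 include Lhx1, Pax2, Pax8, Gata3 and Emx2, which are also among the duct epithelium markers.

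Genes upstream of Gdnf or known to limit budding are given beside the shares called over all genes, which were 33% in UB against WD (13.3% higher and 19.6% lower) and 14.7% in WD+IM against WD (6.49% higher and 8.23% lower). Of 18 listed regulators of Gdnf 12 were tested, and in UB against WD 1 was higher and 2 were lower, with a median of -0.22. Itga8, an integrin of the nephrogenic mesenchyme, was lower by a log2 difference of -3.39 and Wt1, a transcription factor of the mesenchyme, by -4.13, while Robo2, a receptor that restricts Gdnf, was higher by 2.00. Between WD+IM and WD 4 of these 12 were higher and 3 lower, while the Gdnf probe set stayed below the 40th percentile on all of those arrays. Of 10 genes known to restrain budding or to lift the restraint, 4 were higher and 2 lower in UB than in WD, with a median of 0.08. Spry1, an inhibitor of RET signalling, was higher by 2.44 and Grem1, a BMP antagonist that permits budding, lower by -2.51. All UB values of Grem1 lay below the 40th percentile of their arrays, so the size of its difference is uncertain. Grem1 passed the filter only through the WD and WD+IM arrays, so the count lower in UB was partly set by the filter. Of 13 genes for heparan sulfate chains and their core proteins, which GDNF needs to signal, 12 were tested and 1 was higher and 2 were lower: Gpc4 (0.81), Hs6st1 (-0.64) and Sdc4 (-0.62). The median of that list was 0.09, and 3 of 12, its share called and that of the regulators of Gdnf, was not above the share over all genes.

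**Figure D4:**
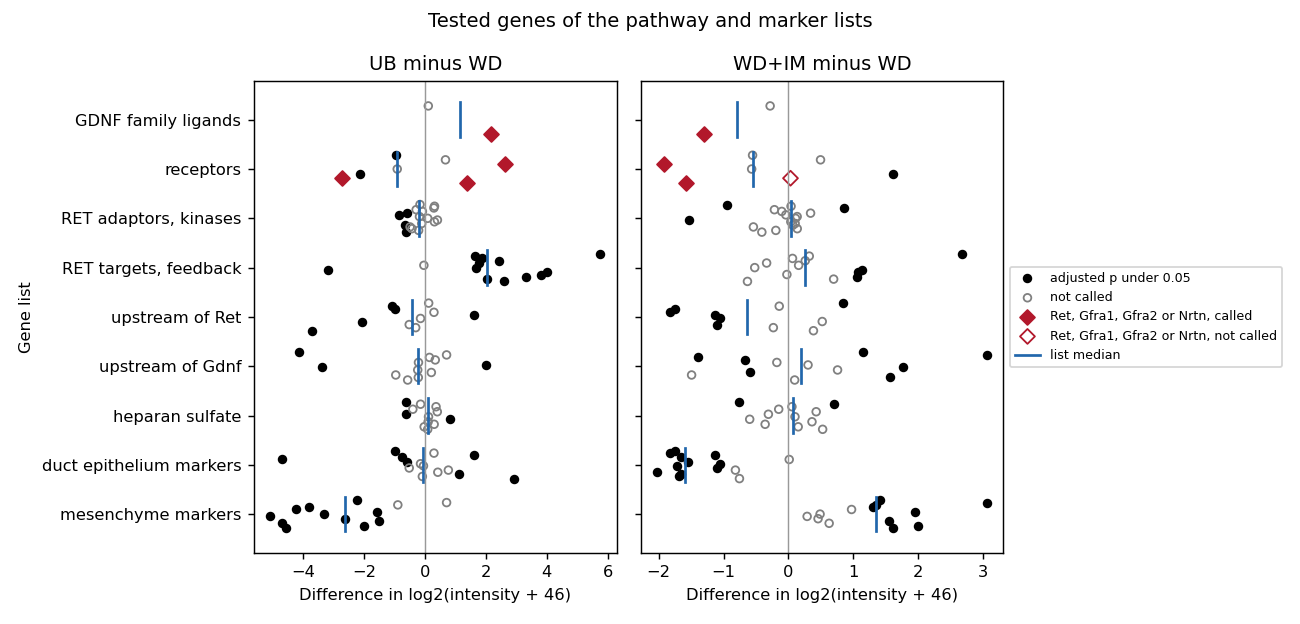
Differences in log2(intensity + 46) of the tested genes in 9 lists for UB against WD and WD+IM against WD, filled where limma's adjusted p was under 0.05, with Ret, Gfra1, Gfra2 and Nrtn as diamonds and a bar at each list's median. Targets of RET gather to the right in UB against WD (median 2.02), and in WD+IM against WD the duct epithelium markers gather near -1.60 together with Ret, Gfra1 and Nrtn, which move to -0.22, 0.13 and 0.41 when arrays are centred on Cdh1 and Epcam.

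Markers of other cells that can express these receptors were read beside the members, and beside the same shares over all genes (13.3% higher and 19.6% lower in UB against WD, 6.49% higher in WD+IM against WD). Of 18 neural crest and autonomic neuron markers 15 were on the array and 8 were tested, and in UB against WD 2 were higher and 2 lower. Gap43, a growth cone protein, was higher in UB by 3.15 and Elavl4, a neuronal RNA-binding protein, by 1.18, while Hand2, a transcription factor of sympathetic neurons and of mesenchyme, differed by -3.95 and Stmn2, a neuronal tubulin regulator named after its value was seen, by -1.22. Phox2a, Foxd3 and Nefl were below the 40th percentile on every array. The summed signal of this list was 11723 to 13795 in UB, 8072 to 12383 in WD and 7661 to 9316 in WD+IM. Gap43 alone gave means of 8398, 907.5 and 561.6 units, so the UB sum was mostly Gap43. Of 13 tested mesenchyme markers 11 were lower in UB than in WD, the direction of Gfra2, with a median of -2.62, and 8 were higher in WD+IM than in WD, where Gfra2 was not called. Of 11 tested endothelial markers 9 were higher in WD+IM than in WD, with sums of 1788 to 2906 in UB, 4730 to 5753 in WD and 39002 to 40797 in WD+IM. Tie1, Sox17 and Sox7, which are among those 9, passed the filter only through the WD+IM arrays, so that count was partly set by the filter. Flt1 also passed only through those arrays but was not called. Of 8 macrophage markers 5, and of 5 red cell markers 3, were lower in UB than in WD. The counts lower in UB also include markers that passed the filter only through WD and WD+IM arrays, such as Alas2, Ahsp, Col6a3 and Pdgfrb. The part of these cells in the levels of the members was not tested.

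The genes whose log2 signals were most like each member over the 9 arrays were found by Pearson's r among 10725 genes. For Ret they were Fhl1 (0.996), Rnase4 (0.994), Tuba4a (0.991), Gldc (0.991) and Slc16a3 (0.991), and 289 genes had an r above 0.9. For Nrtn they were Lat (0.993), Fhl1 (0.991), Ctsh (0.989), Rnase4 (0.988) and Slc16a3 (0.986), so Fhl1, Rnase4 and Slc16a3 were on both lists. For Gfra1 they were Ckb (0.996), Mpzl2 (0.995), Hgfac (0.995), Cmtm8 (0.993) and Itpr3 (0.990), with 290 genes above 0.9. Those most like Gfra2 were Prkcb (0.996), Scn9a (0.993), Krt19 (0.993), Pmp22 (0.993) and Dcn (0.992), with 672 genes above 0.9. Krt19, an epithelial keratin, had mean signals of 524 units in UB, 14649 in WD and 14931 in WD+IM, and Dcn, the matrix proteoglycan decorin, 349.5, 13492 and 16866. Krt19 departed from the other duct epithelium markers: it differed by -4.69 in UB against WD, where the median of that list was -0.07, and by 0.01 in WD+IM against WD, where it was -1.60. For Gdnf the highest r was 0.888, with Pcca, and no gene was above 0.9. All these values are over 9 arrays in 3 tissues that share a common scaling.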

How the data were processed

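The authors deposited a table of intensity values, 1 for each of 31099 probe sets on each of 9 arrays. They were made with GCOS, the array maker's software, per the submitters' processing notes, with its version and summary algorithm not given in the sources used here. The values are on a linear scale, and the trimmed mean of each array is 2501 units with 2% left out at each end. Precision is limited by the number of arrays, and no detection calls were used.

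Names came from the platform annotation, and the 57 control probe sets were left out of the tests. Linear models in limma 3.58.1 (R 4.3.3), with tissue as the only term over all 9 arrays, were fitted to log2(intensity + 46), where 46 units is the 10th percentile over the arrays. Tested probe sets had at least 3 arrays above their 40th percentile. Residual degrees of freedom were 6 and prior ones 6.08, with the variance trended on the mean. A gene was represented by its probe set of highest mean. Named list genes were the 3 of smallest p called in UB against WD, all ligands and receptors, and the 5 of highest r. Genes named outside this rule, also Gata3, Pax2, Cdh1 and Epcam, were picked with their values in view. The members, lists and tests were chosen with earlier results of these data known. The procedure was tested on simulated data.

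Alternatives were quantile normalization, median centring, pseudocounts of 1 and 200, other filters and variance models, array weights, a fit of 2 tissues only, the replicate number as a block, a term for a bioC to bioB ratio above 2, the beta-actin ratio as covariate, the mean of a gene's probe sets and leaving out each array. Added later were centring on Cdh1 and Epcam and fits within arrays of like bioC to bioB ratio. A gene's lists can overlap, and lists were described by counts and medians without a set test.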

Additional observations from a re-analysis of the deposited data

How the results depend on the processing

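For Ret, Gfra1, Gfra2 and Nrtn in the 3 comparisons, 12 results in all, 288 of 293 alternatives kept the direction and the side of the threshold, a change of sign between uncalled values being counted as kept. Many of these alternatives leave the difference itself as it is, so only the call could change. They are the other filters and variance models, the fit of 2 tissues, the replicate block and leaving out an array of the tissue not compared. The 5 others were all in WD+IM against WD: centring on Cdh1 and Epcam gave -0.22 for Ret, 0.13 for Gfra1, 1.74 for Gfra2 and 0.41 for Nrtn, and the beta-actin covariate gave -1.17 for Nrtn (limma adjusted p = 0.105). That centring also gave 0.50 for Ret 1388208_a_at and 1.26 for Gfra1 1367954_at, and called 2 member probe sets instead of 5, both higher in WD+IM. A filter on all 9 arrays left 4 member probe sets to test, of which 4, 3 and 4 were called in UB against WD, WD+IM against WD and UB against WD+IM. The call of Ret 1388208_a_at in WD+IM against WD was lost in 11 of 23 alternatives with its direction kept, and in 1 with its direction turned. Leaving out each array gave 2.53 to 2.73 for Ret, 1.31 to 1.44 for Gfra1, -2.84 to -2.63 for Gfra2 and 2.05 to 2.25 for Nrtn in UB against WD. In WD+IM against WD it gave -2.11 to -1.68 for Ret, -1.80 to -1.41 for Gfra1, -1.60 to -1.12 for Nrtn and 4 to 5 member calls. The difference between Ret and Gfra1, by their brightest probe sets, in UB against WD+IM ran from 1.41 to 1.84.

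Arrays with the same replicate number did not deviate together (r from -0.35 to 0.28 over the 3 comparisons), so the numbers do not pair the samples. With the replicate number as a block the member calls were 7, 5 and 7 as before, and calls over all probe sets went from 6073 to 5338, 2578 to 2194 and 5176 to 4606. Calls over all probe sets were 798 in UB against WD and 2414 in UB against WD+IM with the bioC to bioB term, 3276 in UB against WD and 826 in WD+IM against WD with the beta-actin covariate, and 3743 in UB against WD without UB replicate 1. Centring on Cdh1 and Epcam gave 2965, 18142 and 18797 calls. Fits within arrays of like bioC to bioB ratio gave 1444 in WD+IM against WD and 2991 in UB against WD+IM. The cause of these changes was not tested. Signal over background limits Gdnf and Gfra2 1375359_at, which were tested only without the filter and not called there (adjusted p from 0.185 to 0.933).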
